A study of Homo sapiens with 4 samples.

Results

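The CXC chemokine genes of chromosome band 4q13 are 9 neighbouring genes, PF4, PF4V1, PPBP, CXCL1, CXCL2, CXCL3, CXCL5, CXCL6 and CXCL8, of the 25702 genes counted in K562 cells. They were selected by their position and family, and the set was chosen from the contrast of RUNX1::ERG with empty vector, in which PF4 and PPBP were already known to be among the higher genes. The levels of the 9 members in that contrast are therefore a description, given with no p-value, and how many of them were called is printed only beside the share of all genes called. In the RUNX1::ERG libraries PF4 and PPBP, which were nearly silent with the empty vector, reached the level of expressed chemokines, CXCL1, CXCL2 and CXCL3 were 3.47 to 6.47 times as high as with the empty vector, CXCL8 was 1.63 times as high, PF4V1 stayed at 8 counts or fewer, and CXCL5 and CXCL6 stayed at or near 0.

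K562 is an established human myeloid leukemia cell line with erythroid and megakaryocytic features. It was nucleofected with the LeGO-iG2 plasmid, which also encodes green fluorescent protein, either carrying the RUNX1::ERG fusion or empty, and received no other treatment. The fusion keeps both DNA-binding domains of its parents, Runt and Ets, and the group labelled empty vector carries the same plasmid without it. Each group had 2 biological replicates for whole transcriptome sequencing (WTS), with RNA selected by its poly(A) tail. The methods do not say that K562 cells were sorted for the fluorescent protein before WTS, so cells without plasmid may be part of each library. The paper reports that its nucleofection protocol regularly transfected most K562 cells, but gives no share for these libraries. In such bulk libraries, a few cells with much of an RNA and many cells with little of it cannot be told apart.

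The CXC chemokines of this cluster are small secreted proteins. PF4 (platelet factor 4, also CXCL4) and PPBP (pro-platelet basic protein, the precursor of beta-thromboglobulin and of the neutrophil-activating chemokine CXCL7) are made by megakaryocytes and stored in platelet alpha granules, where PF4 is held by the proteoglycan of serglycin. PF4V1 is a variant copy of PF4. CXCL1, CXCL2, CXCL3, CXCL5, CXCL6 and CXCL8 attract neutrophils through the receptors CXCR1 and CXCR2, and are classical targets of NF-kB in inflamed tissues and in many cell lines.

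On GRCh37, the members lay within 358.7 kb of chromosome 4, from 74606236 to 74964913, by the GENCODE v44 annotation. The order along the chromosome was CXCL8, CXCL6, PF4V1, CXCL1, PF4, PPBP, CXCL5, CXCL3 and CXCL2. The first 4 were on the forward strand and the other 5 on the reverse strand. PF4 (NCBI gene 5196) ran from 74846528 to 74847744 with 3 exons in its canonical transcript, and PPBP (NCBI gene 5473) from 74852156 to 74853907, also with 3 exons. The start of PPBP was 6.2 kb from that of PF4. The same annotation holds an unnamed protein-coding model that overlaps both genes on the same strand.

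The promoter sequences divide the cluster by 1 motif. RefSeq windows were found for 8 of the 9 members, all but PF4, and the 250 bases before the annotated start were searched on both strands. The NF-kB site GGAATTTCC was found in the promoters of all 6 neutrophil-attracting members, CXCL1, CXCL2, CXCL3, CXCL5, CXCL6 and CXCL8, at 69 to 91 bases before the start, and in neither PPBP nor PF4V1. It occurred in 0.413% of the 35116 promoters of that length. CXCL1, CXCL2 and CXCL3 are close copies of each other, as are CXCL5 and CXCL6, so these 6 promoters are not independent. 4 promoters are printed here, 5′ to 3′ on the gene's strand and ending at the base before the start, because they show a promoter without the NF-kB site, that of PPBP, and 3 with it, those of CXCL3, CXCL8 and CXCL6. Of these 4 genes, PPBP, CXCL3 and CXCL8 were higher with RUNX1::ERG and CXCL6 was silent in all 4 libraries. Whether the levels go with the site was not tested. Capitals mark every match to a searched motif. On GRCh38.p14 the PPBP window is chr4:73988191-73988440 on the reverse strand, the CXCL3 window is chr4:74038690-74038939 on the reverse strand, the CXCL8 window is chr4:73740319-73740568 on the forward strand and the CXCL6 window is chr4:73836428-73836677 on the forward strand.
PPBP: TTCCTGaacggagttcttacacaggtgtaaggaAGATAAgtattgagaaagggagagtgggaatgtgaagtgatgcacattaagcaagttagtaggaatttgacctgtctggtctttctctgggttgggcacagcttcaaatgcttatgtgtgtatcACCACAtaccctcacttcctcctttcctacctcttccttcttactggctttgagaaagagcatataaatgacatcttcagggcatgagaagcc
CXCL3: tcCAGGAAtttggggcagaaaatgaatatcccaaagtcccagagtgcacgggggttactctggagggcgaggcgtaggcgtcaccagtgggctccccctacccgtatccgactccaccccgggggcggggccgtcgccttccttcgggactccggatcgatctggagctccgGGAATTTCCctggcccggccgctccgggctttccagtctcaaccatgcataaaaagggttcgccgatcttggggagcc
CXCL8: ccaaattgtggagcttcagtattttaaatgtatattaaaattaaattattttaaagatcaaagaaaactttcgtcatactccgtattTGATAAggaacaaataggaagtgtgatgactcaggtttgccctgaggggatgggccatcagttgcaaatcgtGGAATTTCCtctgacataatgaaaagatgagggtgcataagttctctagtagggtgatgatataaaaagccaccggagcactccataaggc
CXCL6: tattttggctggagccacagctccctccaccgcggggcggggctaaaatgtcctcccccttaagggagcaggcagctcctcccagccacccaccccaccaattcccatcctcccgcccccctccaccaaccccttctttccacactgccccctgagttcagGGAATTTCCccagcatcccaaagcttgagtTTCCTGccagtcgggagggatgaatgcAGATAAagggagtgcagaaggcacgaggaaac

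The shorter motifs searched were common across promoters. The RUNX motif TGTGGT was found in 2 of the 8 promoters, PF4V1 and PPBP, on the reverse strand at 89 to 94 and at 88 to 93 bases before the start, and in 11% of all promoters. Its variant TGCGGT was found in none of the 8 and in 5.84% of all promoters. For ETS factors, CAGGAA was found in PPBP, CXCL3, CXCL5 and CXCL6 (24.1% of all promoters) and CCGGAA in PF4V1 and CXCL1 (14.5%). For GATA factors, AGATAA was found in PPBP, CXCL5 and CXCL6 (9.17%) and TGATAA in CXCL8 (6.66%). The MEIS motif TGACAG was found in CXCL5 (13%), where it overlaps CAGGAA. The USF motif CACGTG (6.34%) and a second NF-kB form, GGGANTTCC (1.59%), were in none of the 8. These matches describe letters in a window and are not measured binding sites.

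The library totals ran from 59695387 to 82352144 counts, and the limit set by a count of 0, taken as 3 counts, was 0.0364 CPM (counts scaled by library size) in the largest library and 0.0503 in the smallest. Between 66.7% and 68.9% of the counts from 1 to 10 were even, as would be seen if each mate added 1 count, so these limits and the intervals given for counts cover counting error only and are too narrow for independent fragments. The transfected fusion was read first. ERG counts were 4 in both libraries of the empty vector, but 80443 and 27218 in replicates 1 and 2 of RUNX1::ERG, and RUNX1 had 4736 and 3453 against 66232 and 28769. Erythroid genes that mark K562, such as HBE1, HBG2 and GATA1, had between 16252 and 709163 counts in every library.

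PF4 was close to silent without the fusion. Empty vector replicates 1 and 2 gave 0 and 2 counts of it, whereas RUNX1::ERG gave 874 in replicate 1 and 555 in replicate 2. Both RUNX1::ERG libraries stood far above both empty vector libraries. After TMM scaling in edgeR, which gives normalized CPM, the PF4 level was 0.0142 ± 0.0201 (SD, n = 2) in empty vector cells against 9.04 ± 1.87 (SD, n = 2) in RUNX1::ERG cells. Since the empty vector group held 2 counts in all, the size of the difference is best given as the ratio of the summed and scaled counts, 598, with a 95% exact interval from 165 to 4943.

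PPBP, the neighbour of PF4, showed the highest count of the platelet chemokines. It had 2 and 6 counts in empty vector replicates 1 and 2, and 1553 and 1462 counts in the RUNX1::ERG replicates. Again the groups did not overlap. The PPBP level was 0.0591 ± 0.0367 (SD, n = 2) normalized CPM in empty vector cells against 19.4 ± 1.36 (SD, n = 2) with RUNX1::ERG, with 8.27 as the fitted log2 fold change (standard error, SE, 0.39). By summed counts the ratio was 316 (95% exact interval 160 to 731). The fitted log2 fold change depended on the few empty vector counts, and was 7.8 without empty vector replicate 1 and 9.11 without empty vector replicate 2. For PF4 these values were 8.23 and 12.35 around 9.06, the second against a lone empty vector library with 0 counts, so that it is set by the small count edgeR adds.

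PF4V1, the variant copy of PF4, had 0 counts in both empty vector libraries, and 8 and 5 in the RUNX1::ERG replicates. Set against a floor of 3 counts over the empty vector group, its 13 summed RUNX1::ERG counts gave a scaled ratio of 3.63. That ratio leaves out the counting error of the 13 and is not a lower limit. Its counts were 0.915% and 0.901% of the PF4 counts in the same libraries. The canonical transcripts of the 2 genes share 93.4% of their aligned coding bases and an identical run of 125 bases, so reads of PF4 placed on PF4V1, or the reverse, were not separated from its own.

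**Figure D1:**
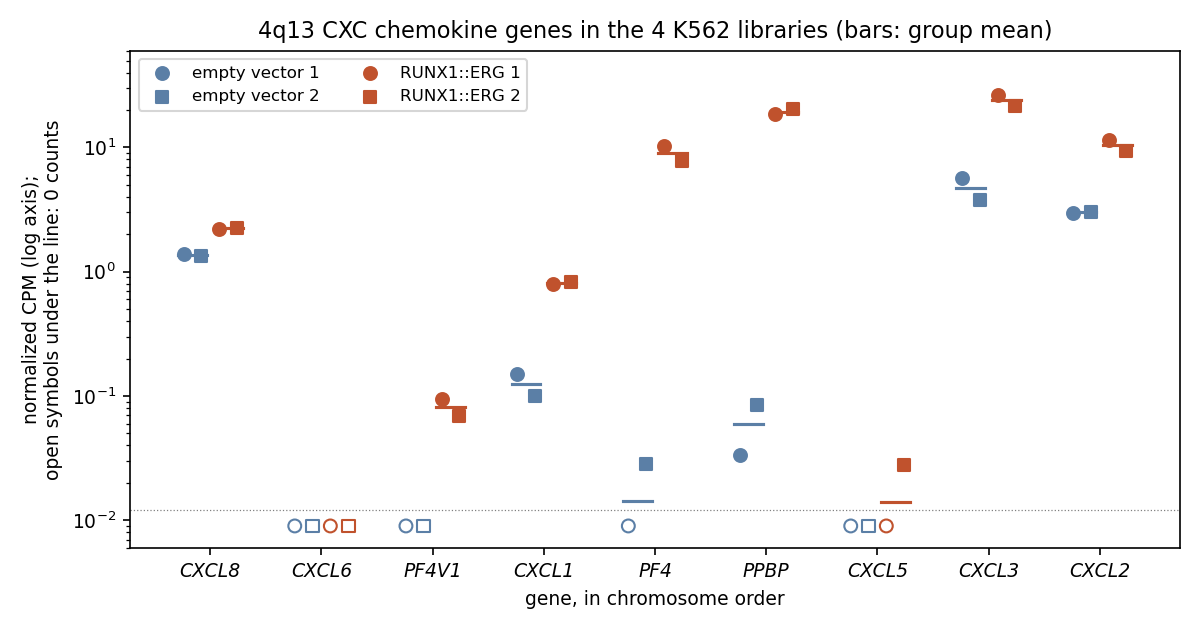
The plot shows normalized CPM on a log axis for each member in chromosome order, with circles for replicate 1, squares for replicate 2, blue for empty vector, orange for RUNX1::ERG, bars for group means and open symbols for libraries with 0 counts. PF4 and PPBP go from at most 0.0851 CPM to at least 7.72 CPM, CXCL1, CXCL2, CXCL3 and CXCL8 are present in both groups and higher with RUNX1::ERG, and CXCL6 is at 0 in all 4 libraries.

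The 3 GRO chemokines, CXCL1, CXCL2 and CXCL3, were higher with RUNX1::ERG. CXCL2 and CXCL3 were expressed with the empty vector, whereas CXCL1 had only 9 and 7 counts there. CXCL3 had 339 and 265 counts in the empty vector replicates and 2248 and 1554 in the RUNX1::ERG replicates. Its level was 4.69 ± 1.32 (SD, n = 2) normalized CPM in empty vector cells against 24.1 ± 3.57 (SD, n = 2) with RUNX1::ERG, and the log2 fold change was 2.36 (SE 0.25). The lower RUNX1::ERG library was 21.6 CPM and the higher empty vector library 5.63 CPM.

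CXCL2 had 180 and 213 counts with the empty vector, and 975 and 669 with RUNX1::ERG. It was at 3 ± 0.0225 (SD, n = 2) normalized CPM without and 10.4 ± 1.6 (SD, n = 2) with RUNX1::ERG, and the log2 fold change was 1.8 (SE 0.26). CXCL1 was far lower, with 9 and 7 counts against 67 and 59. Its log2 fold change of 2.69 carried a standard error of 0.58, larger than that of CXCL2 or CXCL3 because of the few counts. In all 3 genes both RUNX1::ERG libraries were above both empty vector libraries. The coding sequences of CXCL2 and CXCL3 are 94.4% identical, and those of CXCL1 and CXCL2 93.5%, with shared runs of at most 97 bases between their transcripts, so part of their counts may be exchanged among the 3.

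CXCL8 (interleukin-8) had 84 and 95 counts in the empty vector replicates, and 187 and 162 in the RUNX1::ERG replicates. The replicates were close together, at 1.37 ± 0.0336 (SD, n = 2) normalized CPM without and 2.24 ± 0.0251 (SD, n = 2) with RUNX1::ERG, and the groups did not overlap. Its log2 fold change of 0.71 (SE 0.34) was the smallest among the members expressed in both groups.

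CXCL5 had 0 counts in both empty vector libraries, and 0 and 2 in RUNX1::ERG replicates 1 and 2, which is within the floor in both groups, so no fold is given. CXCL6 had 0 counts in each of the 4 libraries, which allows at most 0.0364 to 0.0503 CPM by library. CXCL5 lies next to PPBP on the same strand, its start 16.6 kb from that of PF4, and CXCL6 is the neighbour of PF4V1. These silent genes lay between members that were higher with RUNX1::ERG.

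Levels of different genes were compared per kb of canonical transcript. With the empty vector, the order in RPKM was CXCL3 at 4.37, CXCL2 at 2.69, CXCL8 at 0.835, CXCL1 at 0.106, PPBP at 0.0453 and PF4 at 0.0183. With RUNX1::ERG it was CXCL3 at 22.5, PPBP at 14.8, PF4 at 11.7, CXCL2 at 9.36, CXCL8 at 1.36, CXCL1 at 0.688 and PF4V1 at 0.111. PF4, at 13.4 and 9.99 RPKM in the 2 RUNX1::ERG libraries, and CXCL2, at 10.4 and 8.35, overlapped, whereas CXCL3, PPBP and PF4 did not overlap with each other. The platelet chemokines therefore moved from the bottom of the expressed members to places between CXCL3 and CXCL2.

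Of the 9 members, 6 passed edgeR's filter on low counts and 3 (PF4V1, CXCL5 and CXCL6) did not. In the quasi-likelihood test with Benjamini-Hochberg adjustment over 15394 genes, 5 of the 6 were past 0.05 on the higher side, all but CXCL8, where 3.64% of all tested genes were called higher and 1.15% lower. In all 6, both RUNX1::ERG libraries were above both empty vector libraries, as in 25.1% of all tested genes. The empty vector libraries alone would not have carried PF4, PPBP or CXCL1 past the filter. Since the set was also chosen on this contrast, nothing is read from these counts.

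The RUNX1::ERG replicates differed in the amount of fusion RNA, and the members did not differ to the same degree. ERG was 2.52 times and RUNX1 1.96 times as high in replicate 1 as in replicate 2, in normalized CPM. The same ratio was 1.34 for PF4, 1.24 for CXCL2 and 1.23 for CXCL3, but 0.968 for CXCL1, 0.984 for CXCL8 and 0.906 for PPBP. Thus PF4 was higher, and PPBP slightly lower, in the library with more ERG. With 2 libraries this was not tested.

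**Figure D2:**
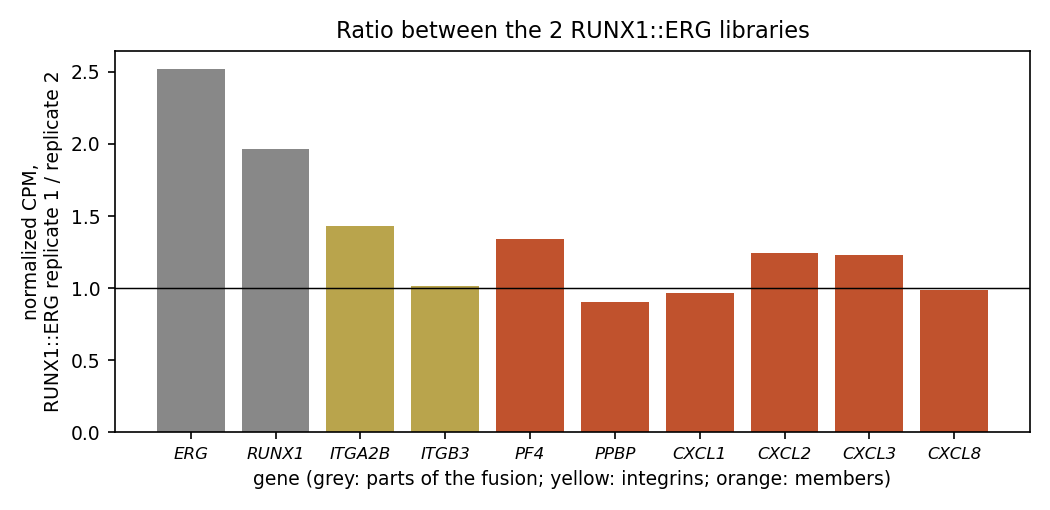
Each bar is the normalized CPM in RUNX1::ERG replicate 1 divided by that in replicate 2, for ERG and RUNX1 (grey), the platelet integrin genes ITGA2B and ITGB3 (yellow) and 6 members (orange), with a line at 1. ERG stands at 2.52 and RUNX1 at 1.96, and the members lie from 0.906 for PPBP to 1.34 for PF4.

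The genes on either side of the cluster were compared to see whether the whole region was higher. None of the 6 flanking genes tested passed the threshold, of 11 listed, from ANKRD17 on one side to PARM1 on the other, and 0 of the 6 had an unadjusted p under 0.05. ANKRD17, which encodes a large ankyrin repeat protein, was at 221 ± 25.1 (SD, n = 2) normalized CPM without and 229 ± 32.6 (SD, n = 2) with RUNX1::ERG. MTHFD2L, a mitochondrial folate enzyme gene whose start is 132.1 kb from that of PF4, had a log2 fold change of -0.14 (SE 0.21, edgeR adjusted p = 0.8), and EREG, the epiregulin gene, one of 0.11 (SE 0.28, edgeR adjusted p = 0.89). The median over the 6 was -0.05, against 0 over all tested genes. Of the other 5, ALB had 8, 2, 113 and 8 counts in empty vector replicates 1 and 2 and RUNX1::ERG replicates 1 and 2, AFM and EPGN had at most 7 and 4, PARM1 had at most 2, and BTC had 0 throughout.

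AREG and ALB passed under some alternatives. AREG, the amphiregulin gene, had 243 and 106 counts with the empty vector and 156 and 106 with RUNX1::ERG (log2 fold change -0.73, SE 0.45, edgeR adjusted p = 0.45), and without empty vector replicate 2 it was called lower (-1.28, edgeR adjusted p = 0.0125). ALB was called higher without a filter on low counts (edgeR adjusted p = 0.000118) and without empty vector replicate 1, empty vector replicate 2 or RUNX1::ERG replicate 2 (edgeR adjusted p = 0.000277, 0.0343 and 0.000468), and its counts stood at 113 in RUNX1::ERG replicate 1 alone.

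**Figure D3:**
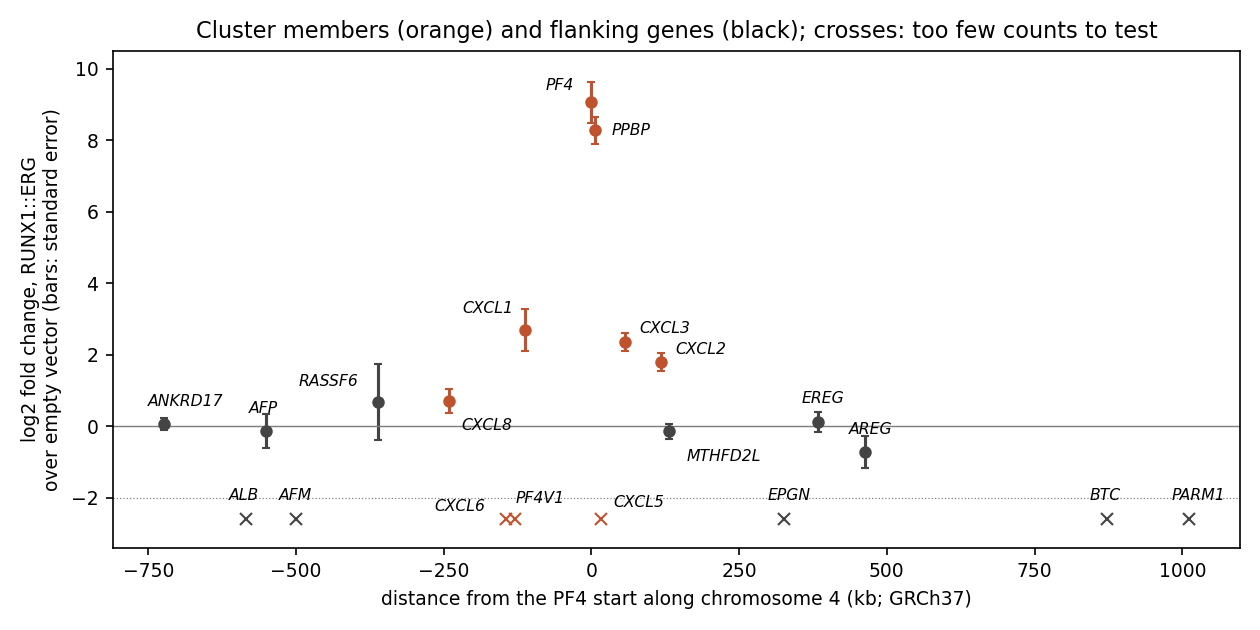
Log2 fold changes with standard errors are plotted against the distance of each gene's start from that of PF4, in kb, for members (orange) and flanking genes (black), and crosses mark genes with too few counts to test. Members stand from 0.71 for CXCL8 to 9.06 for PF4, and MTHFD2L, EREG and ANKRD17 lie near 0.

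Receptors of chemokines were mostly silent in K562. Of 23 listed, 9 could be tested and 8 had 0 counts in all 4 libraries, among them CXCR3, a receptor reported for PF4. CXCR1 and CXCR2, the receptors of the neutrophil-attracting members, had at most 2 and 4 counts. Of the 9 tested, 2 rose and none fell past the threshold, where 3.64% of all tested genes were called higher and 1.15% lower. The median log2 fold change over the 9 was 0.122, with 5 fitted higher, against -0.002 over all tested genes. ACKR2, a decoy receptor that takes up inflammatory CC chemokines, had 28 and 29 counts against 160 and 137, a log2 fold change of 2.12 (SE 0.41, edgeR adjusted p = 0.015). CCR4, a receptor of CC chemokines on T cells, had 10 and 11 against 69 and 56 counts (log2 fold change 2.3, SE 0.55, edgeR adjusted p = 0.04). Without RUNX1::ERG replicate 1 the edgeR adjusted p-values were 0.098 for ACKR2 and 0.25 for CCR4, and without RUNX1::ERG replicate 2 that of CCR4 was 0.13.

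CCRL2, an atypical receptor that binds the chemoattractant chemerin, did not pass, at 202 and 242 against 618 and 453 counts (log2 fold change 1.01, SE 0.26, edgeR adjusted p = 0.057), nor did CCR10, at 0.29 (adjusted p = 0.75). CCRL2 was called higher without a filter on low counts (edgeR adjusted p = 0.0155), with DESeq2 (0.00863), and without empty vector replicate 1 or 2 (0.0381 and 0.0312). CCR10 ran from -0.14 without empty vector replicate 2 to 0.89 without empty vector replicate 1. CCR7 and CXCR4, named after their values were seen, had fewer counts with RUNX1::ERG. CCR7 had 107 and 100 against 67 and 28 counts (log2 fold change -1.42, edgeR adjusted p = 0.12), and CXCR4, the receptor of CXCL12, had 13 and 17 against 4 and 0 (edgeR adjusted p = 0.13). CCR7 was called lower without a filter (edgeR adjusted p = 0.0174) and without empty vector replicate 2 (0.0305), and leaving out RUNX1::ERG replicate 1 moved its log2 fold change to -2.03, and leaving out replicate 2 of that group moved it to -1.02.

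Outside 4q13, 32 other chemokine genes were listed, of which 5 could be tested and 11 were at 0 throughout. The median log2 fold change over the 5 was 1.78, with 4 fitted higher, against -0.002 over all tested genes. CCL5 (RANTES), which is also carried in platelet alpha granules, had 57 and 71 counts with the empty vector and 1141 and 701 with RUNX1::ERG. It rose from 0.977 ± 0.0427 (SD, n = 2) to 11.6 ± 2.67 (SD, n = 2) normalized CPM, for which the log2 fold change was 3.57 (SE 0.30, edgeR adjusted p = 9.96e-05). CXCL16, a membrane-anchored chemokine, rose from 25 and 6 to 191 and 114 counts (log2 fold change 2.97, SE 0.62, edgeR adjusted p = 0.023), and its log2 fold change was 4.47 without empty vector replicate 1 and 2.21 without empty vector replicate 2. The empty vector libraries alone would not have carried CXCL16 past the filter, so its place in the test and the median came through RUNX1::ERG.

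CCL26 (eotaxin-3) fell, from 200 and 191 to 89 and 81 counts (log2 fold change -1.46, SE 0.34, edgeR adjusted p = 0.036). CCL2, named after its values were seen, and CXCL11 did not pass, with log2 fold changes of 1.78 and 1.18 (edgeR adjusted p = 0.084 and 0.14). CCL2 was called higher without a filter (edgeR adjusted p = 0.000932), with DESeq2 (0.0307) and without empty vector replicate 2 (3.16e-05), and its log2 fold change ran from 1.19 without empty vector replicate 1 to 2.86 without empty vector replicate 2. CXCL11 was called higher without a filter (edgeR adjusted p = 0.0365) and without empty vector replicate 2 (0.0164). For the called ligands, with RUNX1::ERG replicate 1 left out, CXCL16 was at an adjusted p of 0.10 and CCL26 at 0.23 in edgeR's test, and with RUNX1::ERG replicate 2 left out CCL26 was at 0.092. Among the genes under the filter, CCL3 had 0, 1, 35 and 8 counts in the 2 empty vector and the 2 RUNX1::ERG libraries, and the interferon-induced CXCL10 had at most 2.

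Platelet chemokines need a granule to be stored in, and 11 genes for that storage or for proteins stored with them were listed. Of the 8 tested, 3 rose and none fell past the threshold, where 3.64% of all tested genes were called higher and 1.15% lower. The median log2 fold change over the 8 was 0.478, with 7 fitted higher, against -0.002 over all tested genes. VWF (von Willebrand factor) had 1 and 8 against 311 and 277 counts, a log2 fold change of 5.76 (SE 0.58, edgeR adjusted p = 0.0004). The empty vector libraries alone would not have carried VWF past the filter, so its place in the test and the median came through RUNX1::ERG. THBS1 (thrombospondin-1) rose from 1.97 ± 0.743 (SD, n = 2) to 24.8 ± 1.98 (SD, n = 2) normalized CPM (log2 fold change 3.65, SE 0.29, edgeR adjusted p = 7.35e-05), and CTSA, a lysosomal carboxypeptidase, from 76.6 ± 2.35 (SD, n = 2) to 125 ± 17 (SD, n = 2) (edgeR adjusted p = 0.034).

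The machinery itself was already present with the empty vector. SRGN, which encodes serglycin, was at 153 ± 2.78 (SD, n = 2) normalized CPM without and 213 ± 2.34 (SD, n = 2) with RUNX1::ERG, and its log2 fold change of 0.47 (SE 0.15) had an adjusted p of 0.10 in edgeR's test. NBEAL2, required for alpha granules, had a log2 fold change of 0.48 (SE 0.19, edgeR adjusted p = 0.21). NBEAL2 was called higher without empty vector replicate 1 (edgeR adjusted p = 0.0364). VWF and THBS1 kept their calls with each library left out, though the log2 fold change of VWF was 5.03 without empty vector replicate 1 and 7.68 without empty vector replicate 2, while CTSA was at adjusted p-values of 0.23 without RUNX1::ERG replicate 1 and 0.051 without empty vector replicate 1 in edgeR's test.

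**Figure D4:**
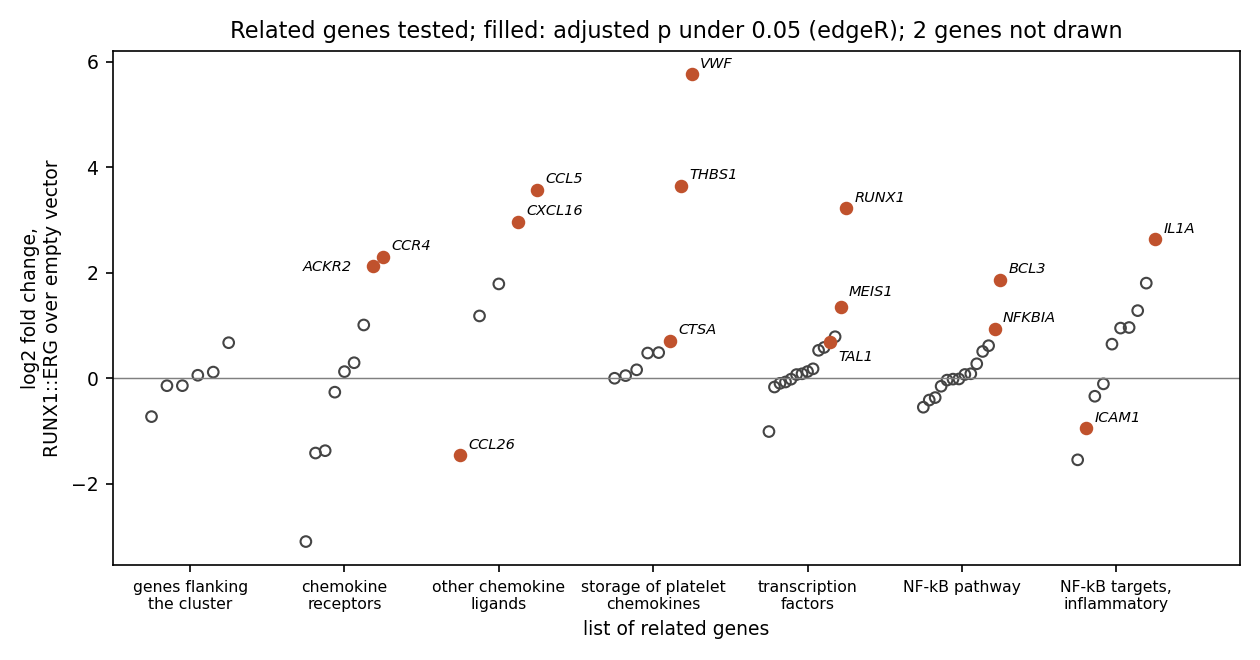
Each symbol is a tested gene of a list of related genes, placed by its log2 fold change of RUNX1::ERG over empty vector, with filled orange symbols for an edgeR adjusted p under 0.05 and with ERG and 1 gene not reported here left out of the drawing. The called genes stand from CCL26 at -1.46 to VWF at 5.76, and none of the flanking genes is called.

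Of 18 transcription factors that act at the PF4 promoter or in megakaryocytes, 17 could be tested, and 5 rose and none fell past the threshold. The shares of all tested genes called were 3.64% higher and 1.15% lower. The median log2 fold change over the 17 was 0.175, with 12 fitted higher, against -0.002 over all tested genes. ERG and RUNX1, at log2 fold changes of 13.37 and 3.22, include the reads of the plasmid. MEIS1, a homeobox factor known to activate the PF4 promoter, had 368 and 435 counts with the empty vector and 1211 and 1217 with RUNX1::ERG, and rose from 6.14 ± 0.0413 (SD, n = 2) to 15.6 ± 1.81 (SD, n = 2) normalized CPM. That is 1.35 on the log2 scale (SE 0.22, edgeR adjusted p = 0.0066). TAL1, a factor of the erythroid and megakaryocytic lineages, was at 0.68 (edgeR adjusted p = 0.025).

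The other 12 factors tested did not pass, and only some are named here, GATA1, ETS1 and SPI1 after their values were seen. GATA1 was at 266 ± 4.82 (SD, n = 2) normalized CPM without and 279 ± 33 (SD, n = 2) with RUNX1::ERG, and NFE2 at 314 ± 12.1 (SD, n = 2) and 293 ± 8.65 (SD, n = 2). ETS1 had log2 fold change -0.17 (edgeR adjusted p = 0.84) and SPI1 -1.01 (edgeR adjusted p = 0.17), and FLI1 had 8 counts or fewer in each library. SPI1 was called lower without a filter (edgeR adjusted p = 0.00364), with DESeq2 (0.0489) and without empty vector replicate 2 (5.57e-05), and its log2 fold change ran from -1.62 without RUNX1::ERG replicate 1 to -0.53 without empty vector replicate 1. TAL1 had an adjusted p of 0.14 in edgeR's test without RUNX1::ERG replicate 1, and one of 0.054 when replicate 2 of that group was left out. MEIS1 kept its call with each library left out.

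The NF-kB pathway was compared because 6 members carry its site. Of its 14 genes, all tested, 2 rose and none fell past the threshold, and the median log2 fold change was 0.02. The shares of all tested genes called were 3.64% higher and 1.15% lower. NFKBIA, which encodes the inhibitor IkB-alpha and is itself an NF-kB target, had 790 and 1022 counts against 2406 and 1752 (log2 fold change 0.94, SE 0.19, edgeR adjusted p = 0.022). BCL3, an atypical IkB protein, had 193 and 111 against 928 and 459 counts (log2 fold change 1.87, SE 0.38, edgeR adjusted p = 0.021). RELA, the main activating subunit, was at 93.5 ± 7.36 (SD, n = 2) normalized CPM without and 92.3 ± 11.6 (SD, n = 2) with RUNX1::ERG, and NFKBIB and CHUK had log2 fold changes of -0.16 and -0.04. Both calls were lost in edgeR's test without RUNX1::ERG replicate 1, at adjusted p-values of 0.15 for NFKBIA and 0.14 for BCL3. With a library left out, the log2 fold change of BCL3 ran from 1.42 without RUNX1::ERG replicate 1 to 2.46 without empty vector replicate 1.

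Other inflammatory genes that NF-kB is known to drive went in both directions. Of 17 listed, 10 were tested, with 1 higher and 1 lower past the threshold, where 3.64% of all tested genes were called higher and 1.15% lower. The median log2 fold change over the 10 was 0.795, with 6 fitted higher, against -0.002 over all tested genes. IL1A (interleukin-1 alpha) rose from 18 and 22 to 190 and 111 counts (log2 fold change 2.63, SE 0.45, edgeR adjusted p = 0.0081). ICAM1, an adhesion molecule, fell from 2378 and 2584 to 1787 and 1302 counts (log2 fold change -0.95, SE 0.18, edgeR adjusted p = 0.015). SOD2 and CD83 had log2 fold changes of -0.11 and 0.64 and did not pass, and TNF and LTB had 0 counts throughout. Without RUNX1::ERG replicate 1 the adjusted p of IL1A was 0.094, and without RUNX1::ERG replicate 2 that of ICAM1 was 0.052, both from edgeR.

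Markers of other cells were read beside the members, and each sum given is over all markers listed for a cell type. For comparison with the calls, 3.64% of all tested genes were called higher and 1.15% lower. Of 11 markers of megakaryocytes and platelets 5 were tested and 3 rose, ITGA2B, ITGB3 and TUBB1. The summed level of all 11 was 106 CPM in each empty vector library and 505 and 435 in the RUNX1::ERG libraries. GP1BB was at 0 in all libraries, GP9, TREML1 and CLEC1B had at most 2 counts, and SELP at most 18. Of 7 monocyte markers 2 were tested and both rose, CD14 (11 and 30 against 325 and 143 counts) and CD68. Their summed levels were 55.6 and 60.8 CPM against 106 and 91.2, of which CD68 alone made 54.7 and 60.2 against 102 and 89.1. Among the 5 under the filter, FCGR3A had 42 and 10 against 8 and 3 counts, and CSF1R had 3 and 3 against 18 and 4. S100A12 and FCN1 had at most 4 and 2 counts, and MARCO was at 0. Of 7 neutrophil markers, 5 were tested and 1 rose, CSF3R, with sums of 1.13 to 2.69 CPM against 1.25 to 3.95, and CEACAM8 was at 0. Of the 5 tested, 3 were fitted higher. FCGR3B (62 and 42 against 35 and 13 counts) and MPO (19 and 4 against 14 and 2) were fitted lower, neither past the threshold. COL1A1 and PECAM1 rose among 6 fibroblast and endothelial markers, of which 3 were tested (sums of 6.81 to 7.42 against 44.7 to 45.9 CPM). None of 4 tested lymphocyte markers of 7 passed (35.7 and 36.6 against 23.3 and 25.2 CPM), with MS4A1 at 0. Of the 9 erythroid genes 1 passed, EPOR. The part of such cells in the levels of PF4, PPBP and the other members was not tested.

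The genes whose profiles over the 4 libraries were closest to those of PF4 and PPBP were taken from 18924 protein-coding genes, by the Euclidean distance between values of log2(normalized CPM + 0.1). For PF4 they were IGFBP5 at a distance of 1.13, INMT at 1.58, FCER1G at 1.58, VWF at 1.93 and RGS18 at 2.11. For PPBP they were IGFBP5 at 2.24, SHANK3 at 2.39, F2RL2 at 2.62, FCER1G at 2.82 and INMT at 3.19. IGFBP5, an insulin-like growth factor binding protein, had 2 and 6 counts with the empty vector and 462 and 541 with RUNX1::ERG. F2RL2, a thrombin receptor subunit, had 32 and 26 against 1624 and 1260, and FCER1G, the signalling chain shared by Fc receptors and the platelet collagen receptor, had 4 and 8 against 494 and 299. The distances describe 4 libraries and carry no test.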

How the data were processed

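For each of the 4 libraries the deposited values were unnormalized counts, 1 row for every NCBI gene number. Libraries were paired-end 150 bp and aligned to hg19, and the submitters' processing notes list HISAT2 2.2.1 and featureCounts 2.0.1. The annotation and the strand and multi-mapping settings are not given in the sources used here, so counts of near-identical and overlapping genes are uncertain. Gene numbers were joined to RefSeq symbols (GRCh38.p14, 92.2% of 25702 matched).

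In R 4.3.3, genes were filtered by edgeR 4.0.16, scaled by TMM and compared, 2 libraries against 2, by its quasi-likelihood test. A gene was called at a Benjamini-Hochberg adjusted p under 0.05. The SE was the log2 fold change divided by the square root of F. Alternatives were other scalings and filters, DESeq2 1.42.0, a replicate block and leaving out each library. The procedure was tested on simulated data. The p-values set the difference between groups against the spread between replicate libraries, which edgeR estimates with information shared across genes. They rest on 2 libraries of K562 cells per group. Promoter windows are those of RefSeq, and transcripts, compared with Biopython 1.88, those of GENCODE.

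Named genes were the 9 members, list genes past the threshold, the 3 most abundant tested genes of each list, fusion partners, GAPDH (log2 fold change 0.005, SE 0.122) and the 5 nearest profiles. CXCR4, CCR7, CCL2, SPI1, ETS1, GATA1, AREG, ALB and the genes under the filter were named after their values were seen. The members and lists were chosen with earlier results of these data known. Of the log2 fold changes, positive values mean higher with RUNX1::ERG. Some members of the related and marker lists are counted in the totals but not reported here by name.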

Additional observations from a re-analysis of the deposited data

How the results depend on the processing

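All 6 tested members were higher with RUNX1::ERG under every alternative that kept them. A minimum of 10 counts in every library removed PF4, PPBP and CXCL1. Scaling by library totals moved CXCL8 to 0.745. With each library left out, which leaves a lone library assumed to vary like the others, log2 fold changes ran from 8.23 to 12.35 for PF4, 7.8 to 9.11 for PPBP, 2.42 to 2.999 for CXCL1, 1.63 to 1.93 for CXCL2, 2.1 to 2.68 for CXCL3 and 0.68 to 0.73 for CXCL8.

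The number of genes called, 737 (560 higher, 177 lower, 76% higher), was 1500 without a filter (962 and 538, 64.1% higher), 1194 with the DESeq2 Wald test (398 lower, 66.7% higher) and 103 lower with library totals (83.3% higher). With a library left out it ran from 286 (without RUNX1::ERG replicate 1) to 1336 (without empty vector replicate 2), from 228 to 922 higher and from 58 to 602 lower. With the replicate block it was 1733 (1082 and 651, 62.4% higher). The block also called CCRL2, CCL2, CXCL11, SRGN and NBEAL2 higher and CCR7 and SPI1 lower. Deviations of same-numbered libraries correlated with r = 0.35 over genes, but no label ties a replicate number to a common batch or day, and the libraries were left unpaired.

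Among 38 other named genes, the alternatives that kept all libraries gave 203 values on the same side, 1 weaker, 15 stronger and 5 of opposite sign, and leaving out a library gave 117, 16, 7 and 12. Here weaker means that the adjusted p went from under 0.05 to above it, and stronger the reverse, whatever the change in log2 fold change. Values on the same side kept both sign and call. With all libraries kept, CCL26 was the weaker one, with library totals (edgeR adjusted p = 0.056). GAPDH turned to -0.008 under DESeq2 size factors in edgeR, -0.007 unfiltered and -0.009 in the DESeq2 Wald test, and RELA and CHUK to 0.026 and 0.004 with library totals. With a library left out, ANKRD17 ran from -0.115 to 0.191, EREG from -0.201 to 0.364, CCR10 from -0.137 to 0.886, GATA1 from -0.06 to 0.168, GAPDH from -0.095 to 0.106, RELA from -0.151 to 0.09 and CHUK from -0.185 to 0.118. The cause was not tested.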

Other observations

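Within the cluster, ratios of counts inside a library differed between groups for some pairs. CXCL3 counts were 1.88 and 1.24 times those of CXCL2 in the empty vector replicates and 2.31 and 2.32 times in the RUNX1::ERG replicates. PF4 counts were 56.3% and 38% of those of PPBP in RUNX1::ERG replicates 1 and 2.

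PPBPP2, a pseudogene related to PPBP, had 4 and 2 counts with the empty vector and 16 and 11 with RUNX1::ERG (edgeR adjusted p = 0.31).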
